A study of Mus musculus with 6 samples.

Results

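The insulin-like growth factor (IGF) axis was followed as 9 genes: the ligand gene Igf1, the receptor genes Igf1r and Insr, and the binding protein genes Igfbp2 to Igfbp7. They were taken by gene symbol from the 54752 genes of the count table, and all 9 were found and passed the filter on low counts. The imprinted genes Igf2 and Igf2r were left out. The cells were mouse embryonic fibroblasts (MEFs), fibroblasts grown out of embryos, of a line whose p53 is deleted in both groups. A lentivirus had brought in either a negative control short hairpin RNA (shNT, genotype labelled WT) or a hairpin against p19ARF (shARF, genotype labelled ARF knockdown). Each group had 3 libraries of total RNA depleted of ribosomal RNA, and the titles of all 6 also carry the tag neo. The titles call the replicates biological (biol rep). The labels name no embryonic age, strain or clone and do not say whether replicates were separate infections. The p-values thus cover the spread of these samples alone, which may still be technical. Setting shARF beside shNT addresses how ARF acts on transcription in cells without p53, the subject of the title.

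IGF-I is a secreted hormone and local growth factor that drives growth and survival through the tyrosine kinase IGF1R, which activates the PI3K-AKT and RAS-ERK pathways through IRS and SHC adaptors. The insulin receptor is the close relative of IGF1R, and both can form hybrid receptors. Binding proteins hold IGF in the fluid around cells, hinder or prolong its access to the receptor, and release it when proteases cut them. Fibroblasts make much of the local IGF and of its binding proteins and proteases.

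In shARF, transcripts of 5 of the 9 genes rose (Igf1, Igf1r, Igfbp4, Igfbp5 and Igfbp7), 3 fell (Insr, Igfbp2 and Igfbp3), and Igfbp6 did not pass the test. The test called 56.4% of all 17128 genes tested, 28.8% higher and 27.7% lower, so the 8 calls stand in a comparison in which most genes were called. With library sizes alone as the scaling, the split over all genes was 23.5% higher and 34.3% lower. The widest changes within the axis were in neighbouring genes: Igfbp5 rose 6.96-fold and Igfbp2 fell 3.48-fold. A called change of 2-fold or more occurred in 3 of the 9 genes, against 14.4% of all genes tested: Igfbp5 was higher (6.59% of all genes were), and Igfbp2 and Insr were lower (7.78% of all genes were). The median log2 fold change of the 9 genes was 0.32, against -0.01 over all genes tested.

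Promoters are shown for Igfbp2 and Igfbp5, the adjacent pair that moved furthest and in opposite directions, and for Igfbp4, which encodes a known substrate of the protease PAPP-A. Each runs 5′ to 3′ on the strand of the gene, from 250 bases before to 50 bases after the RefSeq start (GRCm38.p6). Capitals mark GC boxes (GGGCGG) and TATA boxes (TATAAA), which were searched on both strands with CCAAT, TTCNNNGAA (a STAT motif) and TGTTTAC (a FOXO motif), and no matches overlapped.
Igfbp2, chr1:72824230-72824529, plus strand: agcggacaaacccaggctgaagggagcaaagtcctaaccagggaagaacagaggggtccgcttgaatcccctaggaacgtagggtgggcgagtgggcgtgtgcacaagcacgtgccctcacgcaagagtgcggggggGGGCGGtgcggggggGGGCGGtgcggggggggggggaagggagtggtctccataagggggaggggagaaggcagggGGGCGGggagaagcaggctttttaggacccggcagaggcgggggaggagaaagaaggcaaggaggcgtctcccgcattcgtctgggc
Igfbp5, chr1:72874816-72875115, minus strand: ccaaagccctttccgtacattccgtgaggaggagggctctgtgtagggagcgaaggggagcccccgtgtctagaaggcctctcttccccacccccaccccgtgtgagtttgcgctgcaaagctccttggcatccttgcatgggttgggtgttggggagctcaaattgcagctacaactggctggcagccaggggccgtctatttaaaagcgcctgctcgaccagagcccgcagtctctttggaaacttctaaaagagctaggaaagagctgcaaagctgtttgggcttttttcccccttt
Igfbp4, chr11:99040994-99041293, plus strand: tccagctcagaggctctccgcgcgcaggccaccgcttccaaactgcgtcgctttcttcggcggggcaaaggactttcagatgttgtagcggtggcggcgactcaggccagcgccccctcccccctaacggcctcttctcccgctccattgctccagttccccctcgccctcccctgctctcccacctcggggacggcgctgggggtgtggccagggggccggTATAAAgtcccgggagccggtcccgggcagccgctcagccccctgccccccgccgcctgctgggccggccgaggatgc
The Igfbp2 window held 3 GC boxes, which began 113, 98 and 37 bases before the start. The Igfbp4 window held a TATA box 28 bases before the start. None of the 5 motifs was found in the letters of the Igfbp5 window. Their GC content was 67% (Igfbp2), 56.3% (Igfbp5) and 71.3% (Igfbp4), against a median of 52.7% over 32817 mouse promoter windows of the same length. A GC box was in 35.6% of those windows and a TATA box in 13.6%. Entries were matched for 8 of the 9 genes, with 9 windows because Igfbp2 has a pair. TTCNNNGAA and TGTTTAC were in 0 of those 9 windows, against 8.29% and 3.65% of all windows. At such low shares, 0 of 9 singles out nothing about these genes. The windows of Igf1, Igf1r and Igfbp6 and the Igfbp2 window not shown do not hold the annotated start of the gene.

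Facts of the libraries that touch these results are as follows. Total counts per library ran from 40261944 to 47023082. Cdkn2a, which encodes p19ARF and p16INK4a as 1 counted gene, fell from 224 ± 6.91 to 102 ± 5.57 CPM (counts scaled to a common library total, with TMM library sizes; SD, n = 3 each), and Trp53 was at 2.26 ± 1.2 and 2.61 ± 0.483 CPM. The groups also differed in Xist, the RNA of the inactive X chromosome (387 ± 26.5 and 45.7 ± 7.49 CPM), and 4 of 4 Y-linked genes rose. Of 10 fibroblast markers, 5 rose and 3 fell, with summed levels of 16852 to 18302 CPM in shNT and 20152 to 20274 CPM in shARF. Col1a1 and Col1a2 were the most abundant of them, and Pdgfra fell from 502 ± 5.64 to 91.4 ± 2.23 CPM. Of 6 mesothelial markers, 5 rose and Msln fell, and Lrrn4 and Muc16 had no count in any shNT library. In shARF, Lrrn4 was at 8.91 ± 0.615 CPM and Muc16 at 3.35 ± 0.271 CPM. Upk3b rose from 0.0137 ± 0.0237 to 12.04 ± 0.353 CPM and Wt1 from 0.102 ± 0.126 to 9.54 ± 0.443 CPM. Krt19 rose by only 0.33 on the log2 scale, and the median log2 change of the 6 markers was 8.01. Their sum was 105 to 108 CPM in shNT and 114 to 118 CPM in shARF. That sum hides these rises, since Msln, the most abundant of the 6, fell from 84.2 ± 1.63 to 54.4 ± 1.37 CPM. Epithelial markers summed to 15.3 to 17.5 CPM in shNT and 7.05 to 7.73 CPM in shARF, with 2 of 5 tested higher and 1 lower. The lower one was Krt18 (12.7 ± 1.05 and 0.15 ± 0.13 CPM), and the higher ones were Cdh1 and Krt14. Endothelial markers summed to 3.12 to 3.43 and 2.99 to 3.8 CPM (1 of 3 tested higher, 2 lower, Cdh5 and Tie1 at 0). Kdr rose from 0.282 ± 0.0347 to 3.13 ± 0.37 CPM, and Tek fell from 2.16 ± 0.134 to 0.067 ± 0.0591 CPM. Neural and glial markers summed to 26.7 to 29.7 and 36.8 to 41.9 CPM, most of it Tubb3 (1 of 2 tested higher). The part that these differences have in the results below was not tested, and in bulk RNA fewer cells of a type and less RNA per cell cannot be told apart.

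The ligand gene Igf1 (ENSMUSG00000020053.18; GRCm38 chromosome 10, 87858265 to 87937042, plus strand) was at 43.0, 44.0 and 40.4 CPM in shNT replicates 1, 2 and 3 and at 74.2, 72.6 and 76.8 CPM in shARF replicates 1, 2 and 3. Every shARF library lay above every shNT library. The means were 42.5 ± 1.83 and 74.5 ± 2.15 CPM, a 1.75-fold rise (95% confidence interval 1.63 to 1.89; log2 fold change 0.81, SE 0.05, adjusted p = 1.05e-05, edgeR). Its antisense gene Igf1os, which overlaps it, had no count in any library. Igf1 is also made by macrophages, liver and adipocytes. Macrophage and leukocyte markers summed to 12.7 to 14.1 CPM in shNT and 6.0 to 7.16 CPM in shARF, with 3 of 4 tested lower. Cd14 was the most abundant of them (5.68 ± 0.835 and 4.18 ± 0.475 CPM). Csf1r fell from 4.49 ± 0.271 to 0.338 ± 0.141 CPM, and Cd68 from 2.5 ± 0.194 to 1.36 ± 0.168 CPM. Adgre1, Itgam and Fcgr1 were at 0 in all libraries. Hepatocyte markers summed to at most 0.291 CPM in any library, with Alb, Ttr, Serpina1a and Hnf4a at 0. Adipocyte markers summed to 14.3 to 15.6 and 22.4 to 23.9 CPM, and 2 of 2 tested, Fabp4 and Pparg, rose, while Cidec and Lep were at 0. Skeletal muscle markers summed to at most 0.649 CPM in any library, with Myod1, Myog, Pax7 and Ckm at 0 (1 of 1 tested, Des, higher).

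**Figure D1:**
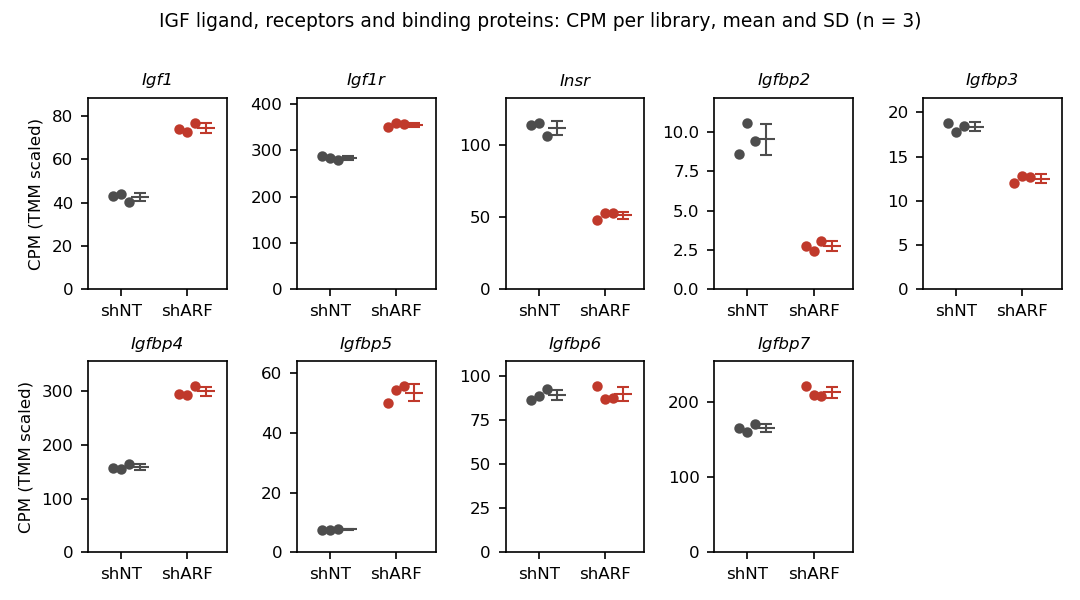
CPM (vertical axis, from 0) of the 9 IGF axis genes in each of the 3 shNT libraries (grey) and 3 shARF libraries (red). Points are libraries, and the bar beside them is the mean with the SD. The groups are apart in all panels except Igfbp6, where they overlap near 90 CPM.

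The receptor genes moved in opposite directions. Igf1r (ENSMUSG00000005533.10; chromosome 7, 67952827 to 68233668, plus strand), which encodes the receptor that binds IGF-I with high affinity, was at 287, 284 and 280 CPM in shNT and at 350, 359 and 356 CPM in shARF. The groups did not overlap, and the rise was small: 1.25-fold (95% confidence interval 1.21 to 1.3; log2 fold change 0.32, SE 0.02, adjusted p = 1.81e-05). Insr (ENSMUSG00000005534.10; chromosome 8, 3122061 to 3279617, minus strand), which encodes the insulin receptor, was at 114, 116 and 107 CPM in shNT and at 48.3, 52.8 and 52.7 CPM in shARF. All shARF libraries were lower, and the fall was 2.19-fold (95% confidence interval 2.01 to 2.38; log2 fold change -1.13, SE 0.05, adjusted p = 4.06e-06).

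Per kilobase of merged exons, a scale on which genes can be compared, the ratio of Igf1r to Insr was 2.06, 2.01 and 2.15 in shNT and 5.94, 5.57 and 5.53 in shARF. The mean ratio went from 2.07 ± 0.0701 to 5.68 ± 0.227 (SD, n = 3 each), so Igf1r transcripts outnumbered Insr transcripts in both groups and by 2.74 times as much in shARF. An exact two-sided permutation test of the log2 ratio gave p = 0.1, and no smaller p can come from 3 libraries a group. These are transcript levels of the receptors and not numbers of receptors on the cell.

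Among the binding proteins, Igfbp5 (ENSMUSG00000026185.8; chromosome 1, 72857932 to 72874884, minus strand) encodes a form that binds to extracellular matrix. It was at 7.62, 7.58 and 7.85 CPM in shNT and at 50.2, 54.5 and 55.7 CPM in shARF. The lowest shARF library was far above the highest shNT library, with a log2 fold change of 2.80 (SE 0.06; 6.96-fold, 95% confidence interval 6.34 to 7.63, adjusted p = 2.25e-07). In size of log2 fold change Igfbp5 ranked 589th of the 17128 genes tested. Igfbp2 (ENSMUSG00000039323.18; chromosome 1, 72824503 to 72852474, plus strand), a form that can also bind integrins, was at 8.64, 10.6 and 9.43 CPM in shNT and at 2.74, 2.42 and 3.06 CPM in shARF. It fell in every shARF library, by 1.80 on the log2 scale (SE 0.12; 3.48-fold, 95% confidence interval 2.85 to 4.25, adjusted p = 2.41e-05). The lower counts of Igfbp2, 398 in shNT replicate 1 and 123 in shARF replicate 1, go with the widest interval of the 9 genes.

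Igfbp4 (ENSMUSG00000017493.12; chromosome 11, 99041244 to 99054392, plus strand), known as an inhibitor of IGF action, was at 157, 155 and 165 CPM in shNT and at 295, 293 and 309 CPM in shARF. The groups were apart, and the rise was 1.88-fold (95% confidence interval 1.78 to 1.99; log2 fold change 0.91, adjusted p = 1.7e-06). Igfbp3 (ENSMUSG00000020427.11; chromosome 11, 7206086 to 7213923, minus strand), which encodes the main IGF carrier of serum and is known as a p53 target, was at 18.8, 17.8 and 18.4 CPM in shNT and at 11.98, 12.8 and 12.7 CPM in shARF. Every shARF library was lower, and the fall was 1.47-fold (95% confidence interval 1.341 to 1.6; log2 fold change -0.55, adjusted p = 1.47e-04).

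Igfbp7 (ENSMUSG00000036256.13; chromosome 5, 77349240 to 77408041, minus strand), a relative that binds IGF weakly, was at 165, 160 and 170 CPM in shNT and at 220, 209 and 207 CPM in shARF. It rose 1.29-fold (95% confidence interval 1.21 to 1.37; log2 fold change 0.36, adjusted p = 1.63e-04), with no overlap of the groups. Polr2b, on the opposite strand, overlaps it in the annotation and had 5947 to 7600 counts per library. No source used here says whether the counting used strand, so reads of Igfbp7 and Polr2b may be mixed. Igfbp6 (ENSMUSG00000023046.6; chromosome 15, 102144362 to 102149511, plus strand), which prefers IGF-II, was at 86.8, 88.9 and 92.7 CPM in shNT and at 94.4, 87.2 and 87.8 CPM in shARF. The groups overlapped, and the log2 fold change was 0.01 with a 95% confidence interval of -0.10 to 0.11 (adjusted p = 0.927), so a change of more than 1.08-fold in either direction lay outside the interval.

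In 8 of the 9 genes the CPM ranges of the groups were apart, against 64.6% of all genes tested. For each of those 8 an exact permutation test (two-sided) returned the smallest p it can, 0.1, and for Igfbp6 it returned 0.9. Of the other genes of the IGF and insulin families, Igfbp1, Ins1, Ins2, Insrr and Igfbpl1 had no count in any library and Igfals had 3 counts in shNT replicate 3 only, so none of these 6 was tested.

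**Figure D2:**
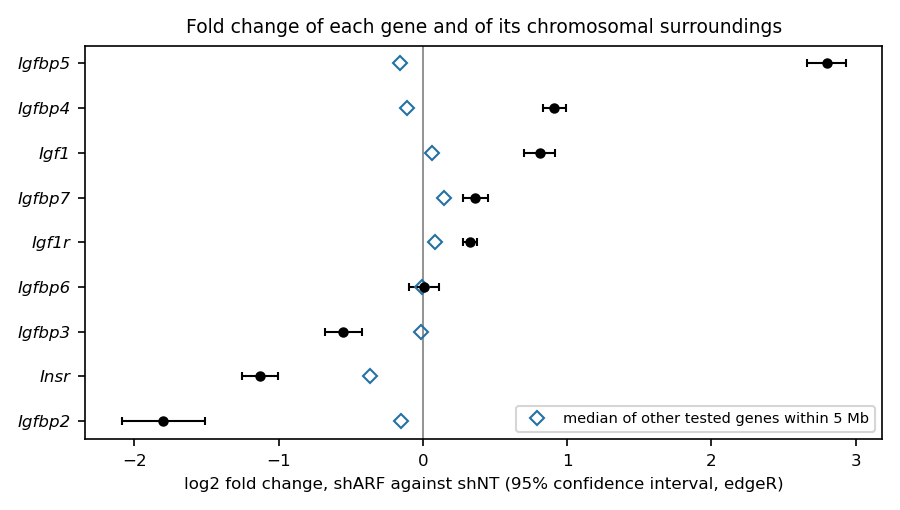
Log2 fold change of each of the 9 genes (black points, with 95% confidence intervals from edgeR) and the median log2 fold change of the other tested genes that start within 5 Mb (blue diamonds). Igfbp5 at 2.80 and Igfbp2 at -1.80 lie at the ends, while their shared surroundings have medians near -0.15, and Insr at -1.13 has the lowest surroundings, at -0.36.

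Levels per kilobase place the genes in order. In shNT the order was Igfbp7 (136 ± 4.48 CPM per kb), Igfbp6 (80.5 ± 2.71), Igfbp4 (36.0 ± 1.18), Igf1r (16.9 ± 0.217), Insr (8.15 ± 0.349), Igfbp3 (5.86 ± 0.163), Igfbp2 (5.17 ± 0.531), Igf1 (4.29 ± 0.185) and Igfbp5 (1.28 ± 0.0241). Igfbp3 and Igfbp2 overlapped in that order, and all other neighbours were apart in these libraries. In shARF the order was Igfbp7 (176 ± 5.99), Igfbp6 (80.8 ± 3.57), Igfbp4 (67.7 ± 1.92), Igf1r (21.1 ± 0.263), Igfbp5 (8.9 ± 0.48), Igf1 (7.53 ± 0.217), Igfbp3 (4.0 ± 0.149), Insr (3.73 ± 0.188) and Igfbp2 (1.48 ± 0.175). Igfbp3 and Insr overlapped, and the other neighbours were apart. Igfbp5 thus went from the lowest level of the 9 genes to the fifth, and Insr from the fifth to the eighth. With the longest transcript as the length, the shNT order was the same, but in shARF Igf1 (10.6 ± 0.305 CPM per kb) stood above Igfbp5 (8.9 ± 0.48), and Insr (5.48 ± 0.276) above Igfbp3 (5.17 ± 0.193), with overlap. Igfbp5 was then the sixth and Insr the seventh, and Igfbp6 and Igfbp4 overlapped.

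As a description of the pool of binding protein transcripts, the 6 Igfbp levels per kb summed to 262, 260 and 274 in shNT and 348, 332 and 335 in shARF, 1.28 times as much. Igfbp7 held 51.4 ± 0.63% of the sum in shNT and 51.9 ± 0.692% in shARF. Igfbp6 held 30.3 ± 0.494% and 23.9 ± 0.475%, and Igfbp4 held 13.6 ± 0.0516% and 20.03 ± 0.823%. Igfbp5 went from 0.482 ± 0.00484% to 2.63 ± 0.2% and Igfbp2 from 1.95 ± 0.224% to 0.439 ± 0.0514%. Igfbp3 held 2.21 ± 0.0752% and 1.18 ± 0.0719%. Igf1 stood at 1.62 ± 0.115% of the summed level in shNT and 2.22 ± 0.0817% in shARF. The order of Igfbp2 and Igfbp5 was thereby turned around, and the 3 most abundant forms made up most of the pool in both groups.

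**Figure D3:**
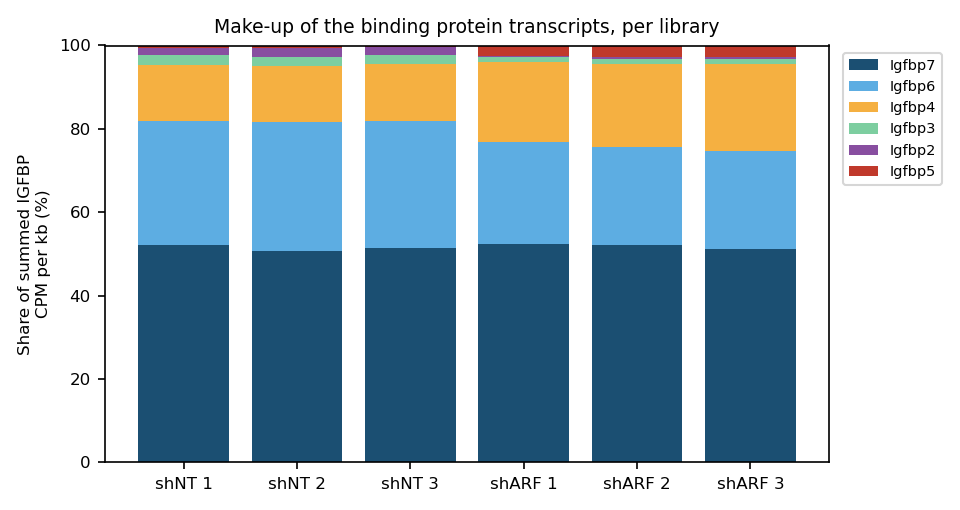
Share of each binding protein gene in the summed Igfbp level (CPM per kb of merged exons, in percent) in each of the 6 libraries, stacked to 100%. The Igfbp4 band widens from about 13.6% to 20.03% and the Igfbp6 band narrows from 30.3% to 23.9%. At the top, Igfbp2 gives way to Igfbp5 in all 3 shARF libraries.

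Most tested genes for proteases of the binding proteins, and for inhibitors of those proteases, rose. Of 8 in the list, 7 were tested, 6 were higher and 0 lower, and their median log2 change was 0.96 against -0.01 over all genes tested. The shares over all genes tested were 28.8% higher and 27.7% lower. Pappa, which encodes the metalloprotease PAPP-A that cuts IGFBP4, IGFBP5 and IGFBP2, was at 35.9, 32.9 and 33.9 CPM in shNT and at 235, 224 and 225 CPM in shARF. All shARF libraries were higher, and the log2 fold change was 2.73 (SE 0.04; 6.66-fold, adjusted p = 1.47e-07). Stc2, which encodes stanniocalcin-2, an inhibitor of PAPP-A, was at 10.6, 9.14 and 8.48 CPM in shNT and at 45.7, 45.3 and 44.7 CPM in shARF. It too was higher in each shARF library, 4.81-fold (log2 fold change 2.27, SE 0.08, adjusted p = 1.68e-06). Of the binding proteins that PAPP-A is known to cut, Igfbp4 and Igfbp5 also rose, while Igfbp2 fell.

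Adam12, a metalloprotease known to cut IGFBP3 and IGFBP5, rose from 39.1 ± 0.823 to 76.0 ± 0.681 CPM (a log2 change of 0.96, adjusted p = 1.56e-06). Htra3, a secreted serine protease, rose from 4.68 ± 0.613 to 13.3 ± 0.39 CPM (1.503, adjusted p = 2.45e-05). Its relative Htra1 (0.53) and the second stanniocalcin gene Stc1 (0.62), named after their values were seen, rose less on the log2 scale. Pappa2, which encodes a relative of PAPP-A, did not pass the test (3.13 ± 0.582 and 2.85 ± 0.265 CPM, adjusted p = 0.492), and Adam28 had no count.

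The growth hormone receptor and STAT5 arm, through which growth hormone induces Igf1 in liver and other tissues, was lower throughout. All 6 genes of the list fell, with a median log2 fold change of -0.81, while Igf1 rose. Among all genes tested, 27.7% were lower, and the median was -0.01. Stat5a was at 55.6, 60.4 and 56.3 CPM in shNT and at 24.3, 25.6 and 22.2 CPM in shARF, a log2 fold change of -1.26 (SE 0.07, adjusted p = 7.34e-06). Stat5b fell from 62.1 ± 0.96 to 38.6 ± 0.636 CPM (-0.69, adjusted p = 7.04e-06), and Jak2, the kinase bound to the receptor, from 100.3 ± 3.28 to 60.1 ± 2.47 CPM (-0.74, adjusted p = 1.29e-05). Cish, a feedback inhibitor induced by STAT5, fell from 7.47 ± 0.288 to 2.25 ± 0.647 CPM (-1.73, adjusted p = 2.79e-04). The others, Ghr (-0.35) and the STAT5-induced Socs2 (-0.87), named after their values were seen, also fell.

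**Figure D4:**
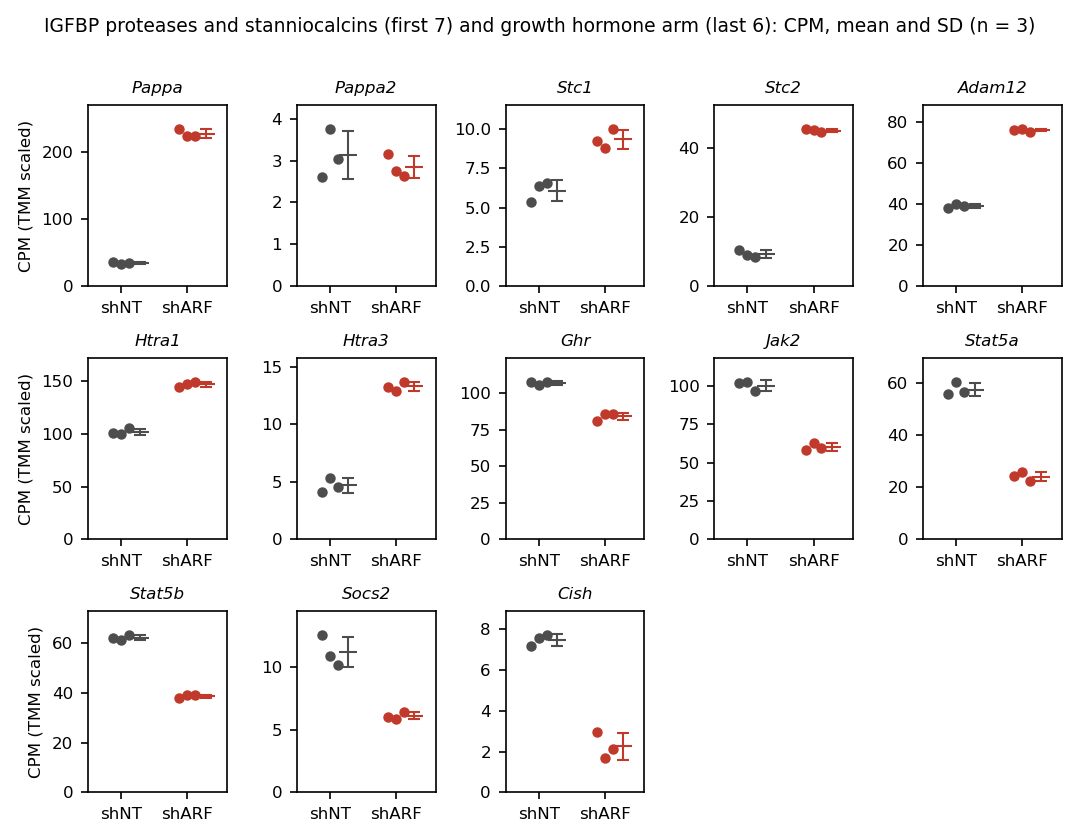
CPM (vertical axes, from 0) of 7 genes for proteases of the binding proteins and stanniocalcins and of 6 genes of the growth hormone arm, in 3 shNT libraries (grey) and 3 shARF libraries (red), with mean and SD. Of the first 7, all but Pappa2 are higher in shARF, and all of the last 6 are lower.

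Downstream of the receptors, genes of the PI3K-AKT-mTOR arm were split. Of 31 in the list, 29 were tested, 9 were higher and 16 lower, and the median of the log2 fold changes was -0.17. Over all genes tested, 28.8% were higher and 27.7% lower, with a median of -0.01. The adaptors that restrain the receptor kinases fell: Grb10, an imprinted gene, was at 844, 863 and 865 CPM in shNT and at 454, 461 and 470 CPM in shARF (log2 fold change -0.89, SE 0.02, adjusted p = 3.47e-07). Grb14, the related adaptor, was at 36.8, 37.9 and 39.0 CPM in shNT and at 9.75, 9.44 and 9.1 CPM in shARF (-2.01, SE 0.05, adjusted p = 4.13e-07). Both genes were thus lower in every shARF library. Akt1, the kinase that carries much of the signal, rose from 237 ± 2.39 to 377 ± 6.13 CPM (0.67, adjusted p = 9.22e-07), and Foxo4, a transcription factor that AKT holds out of the nucleus, fell from 37.0 ± 1.13 to 17.2 ± 0.428 CPM (-1.10, adjusted p = 2.66e-06). Named after their values were seen, the adaptor gene Irs1 (-0.32) and the mTOR inhibitors Tsc1 (-0.67) and Tsc2 (-0.58) fell, and Foxo1 (0.98) and the mTOR activator Rheb (0.47) rose. With library sizes alone as the scaling, 8 genes of this list were higher and 19 lower.

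Genes of the RAS-ERK arm were also split, with 6 of 17 higher, 5 lower and a median of 0.01 on the log2 scale. These counts are read beside the 28.8% higher and 27.7% lower of all genes tested and single out nothing about the list. Nras rose from 99.2 ± 2.73 to 184 ± 2.53 CPM (a log2 change of 0.89, adjusted p = 1.04e-06) and the ERK kinase gene Map2k1 from 56.8 ± 1.76 to 100.2 ± 1.54 CPM (0.82, adjusted p = 3.35e-06). The paired RAS exchange factors moved apart: Sos1 fell from 113 ± 3.57 to 56.7 ± 2.25 CPM (-0.998, adjusted p = 3.06e-06) and Sos2 rose from 16.9 ± 0.858 to 38.8 ± 2.27 CPM (1.20, adjusted p = 7.66e-06). The count of lower genes was 3 without shNT replicate 2 and 3 without shARF replicate 2. Grb2, which links the receptors to SOS, varied within groups (51.6, 103 and 53.5 CPM in shNT and 83.4, 42.6 and 83.5 CPM in shARF) and was not called.

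Of 16 genes listed as FOXO targets, which insulin and IGF-I hold down through AKT, 7 were lower and 2 higher, and 9 of 16 called is a share close to the 56.4% of all genes tested. By direction, 27.7% of all genes tested were lower and 28.8% higher. A called fall of 2-fold or more occurred in 6 of the 16, and such a rise in 1. Over all genes tested these shares were 7.78% and 6.59%. The median log2 change was 0.01, and among the 7 not called the widest was that of Txnip (0.63, adjusted p = 0.0636). Fbxo32, a muscle ubiquitin ligase, was at 21.3, 21.6 and 19.8 CPM in shNT and at 4.69, 5.2 and 5.41 CPM in shARF (-2.03, adjusted p = 1.71e-06). Sesn1, a stress-induced inhibitor of mTOR signalling, fell from 45.9 ± 0.824 to 18.6 ± 0.476 CPM (-1.30, adjusted p = 9.38e-07), and Pdk4, which restrains glucose oxidation, from 8.88 ± 0.52 to 1.84 ± 0.166 CPM (-2.27, adjusted p = 3.35e-06). Ccng2 (-1.66) and Pink1 (-1.03) fell, and Klf15 rose from 0.75 ± 0.119 to 4.22 ± 0.129 CPM (2.50, adjusted p = 9.83e-06). Sesn3 was at 151, 155 and 152 CPM in shNT and at 81.3, 26.9 and 78.9 CPM in shARF, where replicate 2 stood apart (-1.29, adjusted p = 0.0242). The call of Sesn3 was lost without shNT replicate 1 (adjusted p = 0.0544), 2 (0.0572) or 3 (0.0549), and its adjusted p ran from 1.5e-05 to 0.0572 over all alternatives. Txnip, at 66.7 CPM in shNT replicate 2 against 38.6 and 34.9 CPM in the others, passed without that library (0.98, adjusted p = 6.07e-04, with 6.07e-04 to 0.181 over all alternatives). The count of higher genes was 1 without shARF replicate 2.

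Among 10 genes for receptor processing and turnover, 2 were higher and 5 lower (median log2 fold change -0.16). These counts stand beside 28.8% higher and 27.7% lower of all genes tested and single out nothing about the list. Pcsk6, a proprotein convertase of the furin family, rose from 3.97 ± 0.0936 to 15.3 ± 0.527 CPM (1.94, adjusted p = 8.9e-07). Cav1, which encodes the caveolae protein that insulin receptors associate with, fell from 38.0 ± 2.44 to 26.0 ± 0.907 CPM (-0.55, adjusted p = 2.52e-04), and Arrb2, a beta-arrestin, from 18.9 ± 1.56 to 13.8 ± 0.241 CPM (-0.46, adjusted p = 0.00132). Arrb1, the other beta-arrestin gene, was at 41.3, 43.9 and 39.8 CPM in shNT and at 6.94, 19.2 and 20.7 CPM in shARF (-1.42, adjusted p = 0.0144). With library sizes alone as the scaling, 1 gene of this list was higher.

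The chromosomal surroundings of the 9 genes differed, and the counts of neighbours below stand beside the 28.8% higher and 27.7% lower of all genes tested. Igfbp2 and Igfbp5 lie tail to tail on chromosome 1 with 5.46 kb between them. The other 2 tested genes that start within 500 kb of both, Rpl37a (-0.24, lower) and Smarcal1 (-0.03, not called), had log2 changes far smaller than the pair, and the 63 tested genes within 5 Mb of Igfbp5 had a median of -0.16. Insr lies among genes that fell: of 12 tested genes within 500 kb, 9 were lower and 2 higher (median -0.36 on the log2 scale). Within 5 Mb, 19 of 31 were lower and 3 higher (median -0.36), and the other tested genes of chromosome 8 had a median of -0.27. Relative to the 5 Mb median, Insr stood at -0.76. For Igfbp7, 8 of 8 tested genes within 500 kb were higher, with a median of 0.42 beside the 0.36 of Igfbp7 itself. The part of the surroundings in the changes of Insr, Igfbp7 and Igf1r was not tested.

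**Figure D5:**
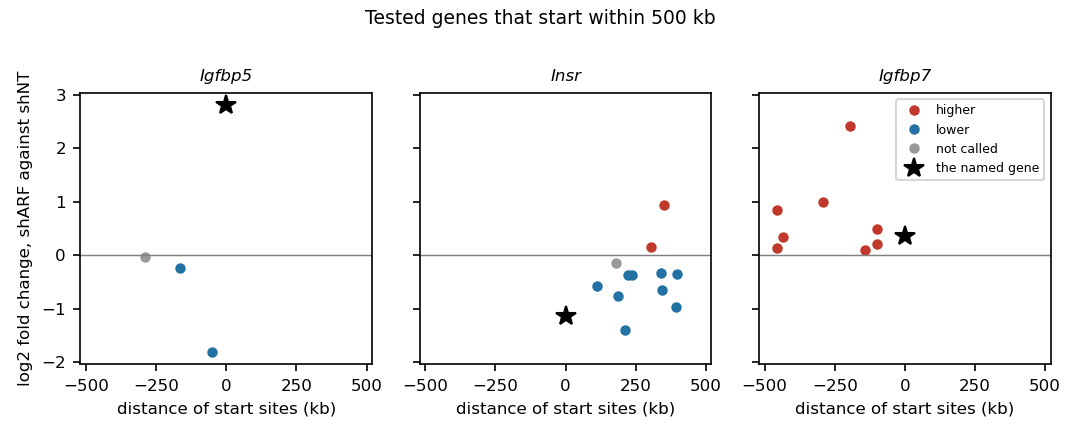
Log2 fold change (vertical axis) of tested genes by the distance of their start from that of Igfbp5, Insr or Igfbp7 (horizontal axis, kb), coloured by call, with the named gene as a star. Igfbp5 at 2.80 stands above its few neighbours, 9 of the 12 genes around Insr are lower, and all 8 around Igfbp7 are higher.

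None of the 4 tested genes within 500 kb of Igf1 was called (median -0.02). Of 18 around Igfbp4, 3 were higher and 3 lower (median -0.04), including Top2a, which starts 17.1 kb away and did not pass the test (0.06, adjusted p = 0.0605). Igfbp6 did not pass the test although 14 of 24 tested genes around it rose and 4 fell. Named after its value was seen, Soat2, a sterol acyltransferase gene that starts 6.16 kb from Igfbp6, rose by 4.26 on the log2 scale (adjusted p = 6.67e-04). For Igf1r, 2 of 5 rose and 1 fell, and their median was 0.30 beside the 0.32 of Igf1r. Those 5 ran from -0.44 (Ttc23) to 1.26 (Synm). Within 5 Mb of Igf1r, 14 of 39 tested genes were higher and 8 lower, with a median of 0.09. For Igfbp3 the 1 tested gene, Adcy1, was higher (0.73).

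The genes with the most similar profiles were found as those with the smallest Euclidean distance of centred log2 CPM over the 6 libraries, among 11051 genes whose mean was 5 CPM or more. With 2 groups this likeness mostly restates a fold change of the same size. Closest to Igf1 were Sorcs2 (distance 0.0495; 50.9 and 88.5 CPM in shNT and shARF), Loxl4 (0.0738) and Bhlhe40 (0.075). Closest to Igf1r were Fbxo22 (0.0276), Dck (0.0281) and Txnrd1 (0.0323). Closest to Igfbp5 were Myo7a (0.145), Rspo2 (0.158; 45.2 and 301 CPM) and Foxred2 (0.193), and closest to Igfbp2 were Cdkn1c (0.138; 18.4 and 5.39 CPM), Pard6b (0.246) and Fam117a (0.263). Each lies on another chromosome than the gene it resembles.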

How the data were processed

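Whole-number counts by mouse Ensembl gene, as deposited by the authors in 1 table, were read from the 6 columns of this series. The table's 6 further columns match no sample of the series and were used in no step. The shARF columns carry other index numbers than the titles and were matched on group and replicate. Per the submitters' processing notes, the tools included HISAT2 2.1.0, StringTie 1.3.2, Picard 2.13.2, Trim Galore 0.4.1 and SAMtools 0.1.19 on GRCm38, with no role or order. No source used here gives the annotation, the strand setting or whether duplicate reads were removed. Without strand, overlapping genes are mixed, and removed duplicates would lower abundant genes.

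Symbols, coordinates and merged exon lengths came from GENCODE M21 (GRCm38), where 54723 of 54752 IDs matched when the version was ignored. Promoters came from RefSeq. The main test was edgeR 4.0.16 (R 4.3.3, glmQLFit and glmQLFTest) with TMM, filterByExpr (minimum count 10, minimum total 15), group as the sole term and Benjamini-Hochberg adjustment over all 17128 genes at a threshold of 0.05. SE is the log2 fold change divided by the square root of F, and CPM use TMM library sizes. No set test was run. The steps were tested on simulated data. No pair of libraries of a group agreed within sampling noise (chi-square per gene, at least 13.8). The 9 genes, lists and alternatives were chosen with earlier results of these data known. Named were all 9 genes, from each pathway list the 3 smallest p and other called genes changed by at least 2-fold, and the most abundant markers. Further markers, among them Pdgfra, Cd68, Krt14, Upk3b, Wt1, Lrrn4 and Muc16, were named after their values were seen. Alternatives were DESeq2 1.42.0, limma-voom (limma 3.58.1), other scalings, filters and lengths, a threshold of 0.01, a replicate block and each library left out.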

Additional observations from a re-analysis of the deposited data

How the results depend on the processing

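Each of the 9 IGF axis genes kept its direction and its side of the threshold under all 15 alternatives, except that Igfbp6, never called, had log2 fold changes from -0.08 to 0.03. The counts of 5 higher and 3 lower were the same in every alternative. Over all genes, 56.4% were called, against 41.1% with DESeq2, 33.7% with no filter on low counts and 64.7% when genes needed 1 CPM or more in 3 libraries, where other numbers of genes are tested. Same-numbered replicates did not deviate together (correlations of -0.291, -0.0933 and -0.0806), and with the replicate block 5 and 3 of the 9 genes and 8913 of all genes were called. That block left 3 lower genes in the RAS-ERK list and 1 higher FOXO target. A threshold of 0.01 left 3 lower RAS-ERK genes, 1 higher FOXO target and 3 lower genes of receptor turnover. Library sizes alone, which shift the median of all genes by -0.09, left 1 higher FOXO target and 1 higher gene of receptor turnover. Leaving out 1 library gave 3 to 5 lower RAS-ERK genes and 1 to 3 higher FOXO targets. Of 1275 combinations of a pathway gene and an alternative, 53 lost the call, 10 gained one and 0 reversed. With the longest transcript as the length, the shares were 2.65% (Igfbp2), 2.75% (Igfbp3), 15.1% (Igfbp4), 0.464% (Igfbp5), 29.2% (Igfbp6) and 49.9% (Igfbp7) in shNT, and 0.596% (Igfbp2), 1.47% (Igfbp3), 22.2% (Igfbp4), 22.9% (Igfbp6) and 50.3% (Igfbp7) in shARF. At the threshold of 0.01 the fit was unchanged, so those calls were lost through the cutoff alone. The cause of the other losses of calls was not tested. The fewest counts were those of Igfbp5 in shNT (323 to 369) and of Igfbp2 in shARF (106 to 137).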
